A study of Homo sapiens with 12 samples.

Results

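ATP citrate lyase (ACLY) was knocked down by small interfering RNA (siRNA) in MiaPaCa-2, a human cell line established from a pancreatic carcinoma, and the transcriptome was compared with that of cells given a control siRNA. The comparison rests on 6 of the study's 12 RNA-seq libraries, chosen by their labels, namely 3 named siACLY and 3 named siControl. The other 6 libraries, 3 named siSLC25A1 and 3 named siACO1, were transfected with siRNAs against the mitochondrial citrate carrier and cytosolic aconitase. They served to estimate the spread and to give levels outside the contrast. All groups are the same cell line in the medium its supplier recommends, and no group lacks an siRNA. The sequences and number of siRNAs per target, the time after transfection and whether replicates were separate cultures are not given in the sources used here, so p-values measure the spread between these libraries, which may be technical. Of 70116 gene identifiers in the count table, 16197 had enough counts to be tested, and the response was described over those genes.

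ACLY splits citrate in the cytosol into oxaloacetate and acetyl-CoA. That acetyl-CoA is the building block of fatty acids and of cholesterol, and in the nucleus it is the donor from which histone acetyltransferases acetylate histones. ACSS2 makes acetyl-CoA from acetate and is the other main source outside mitochondria. Transcription of sterol and fatty acid genes is driven by the SREBP factors (genes SREBF2 and SREBF1), which INSIG proteins hold in the endoplasmic reticulum while sterol is plentiful.

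Library totals ran from 28641881 to 36466251 counts in siControl and from 25438086 to 43792811 in siACLY, where replicate 1 was the deepest. Replicates of a group differed by more than sampling noise, with a chi-square of 2.64 to 3.79 per degree of freedom. Their log2 levels correlated across genes at 0.9923 to 0.9941. The carcinoma markers summed to between 7595 and 7630 CPM (counts scaled to a common library size) in siControl and between 8392 and 8993 CPM in siACLY. Most of this came from VIM, KRT8 and KRT18. KRT19 was at 88.5 CPM in siControl and 141 CPM in siACLY, VIM at 3561 and 4558 CPM, and S100A4 at 361 and 276.0 CPM. EPCAM and CDH1, both epithelial, had 0 counts in the 3 siControl libraries. Acinar, endocrine and blood cell markers summed to under 1 CPM in each of the 6 libraries, with PRSS1, INS and PTPRC at 0. COL1A2, a collagen gene on the fibroblast list, was at 885 CPM in siControl and 850.1 CPM in siACLY, while LUM was at 0 and DCN at or near 0. The part of the shifts in KRT19, VIM and S100A4 in the results was not tested. The material is RNA of a whole culture, in which fewer cells of a type and less RNA per cell cannot be told apart.

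A low count in this table is not by itself absence of the transcript. Genes that every cell uses were listed at or near 0 in all 12 libraries. The highest count in any library was 1 for FBL, the nucleolar methyltransferase fibrillarin, 1 for RPS3A, 5 for RPS18 and 6 for RPL7A, all 3 of them parts of the ribosome. Of 83 protein-coding ribosomal protein genes, 10 stayed under 10 counts in every library, and of the 616 listed genes described further on, 46 did, 25 of them at 0. Such genes are named as not tested, and nothing is read from them.

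The ACLY transcript (chr17:41866908-41930542 on GRCh38, minus strand) was at 495, 493 and 507 CPM in the siControl libraries and at 36.4, 36.4 and 35.6 CPM in the siACLY libraries. The siACLY mean of 36.1 ± 0.504 CPM (SD, n = 3) was 7.24% of the siControl mean of 499 ± 7.55 CPM. The groups did not overlap, and the log2 fold change was -3.79 ± 0.04 (SE, adjusted p = 4.15e-32). The transcripts of the other targets stayed near control. SLC25A1 was at 133, 135 and 134 CPM in siControl and 133, 129 and 132 CPM in siACLY, a log2 fold change of -0.03 (adjusted p = 0.684). ACO1 was at 44.4, 43.9 and 46.8 CPM and 51.1, 50.8 and 49.4 CPM, a rise of 0.16 on the log2 scale (adjusted p = 0.0239) that did not pass the threshold in 5 of 14 alternative settings, among them leaving out siControl replicate 1 or 2, or siACLY replicate 1 or 2.

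Knockdown of ACLY was accompanied by a broad, mostly small response in which higher and lower calls were equally frequent, and by a smaller set of large changes that were mostly rises. In the edgeR fit 5944 genes passed an adjusted p of 0.05, which was 36.7% of those tested. Of these, 2977 were higher in siACLY (18.4% of genes tested) and 2967 were lower (18.3%). Called genes changed by a median of 0.34 on the log2 scale, signs aside, and the median change of all tested genes was 0.008. A change of at least 2-fold was called for 589 genes, 471 of them rises (2.91% of genes tested) and 118 of them falls (0.729%), so that rises made up 79.97% of the large changes. In 448 of the 471 rises all 3 siACLY libraries lay above all 3 siControl libraries, and in 112 of the 118 falls they all lay below. Over all tested genes, whether called or not, 25.5% had all siACLY libraries above and 25.0% had them all below.

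The balance of direction moved steadily with the size of the change. Among called genes that changed by under 0.25 on the log2 scale, 819 of 2000 were higher in siACLY (40.95%). The share was 45.2% between 0.25 and 0.5, 58.72% between 0.5 and 1, 78.89% between 1 and 2 (411 of 521 genes), and 88.24% at 2 or more (60 of 68 genes). The direction of the small changes depended on the scaling. With library totals alone in place of TMM (trimmed mean of M values) factors, 61.01% of all called genes were higher in siACLY against 50.08% with TMM, and the smallest changes were 52.43% higher. The TMM factors themselves separated the groups, at 0.9776 to 0.9889 in siControl and 1.01 to 1.017 in siACLY. The large changes held under each scaling tried: with library totals 82.21% of changes between 1 and 2 and 91.78% of those at 2 or more were rises, and with median-of-ratios size factors the shares were 78.6% and 87.69%.

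**Figure D1:**
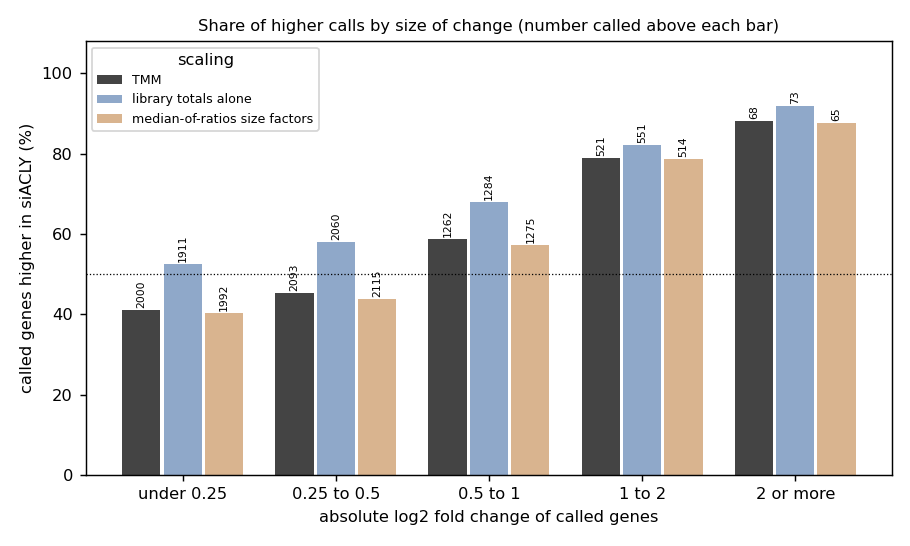
Share of called genes that were higher in siACLY (vertical axis, %) by absolute log2 fold change (horizontal axis), for 3 ways of scaling the libraries, with the number of called genes above each bar and a dotted line at 50%. The share rises from 40.95% in the smallest TMM band to 88.24% in the largest, and the 2 smallest bands lie below the line with TMM and size factors and above it with library totals.

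Summed in TMM-scaled CPM the large rises were small. The 471 rises together went from 1513 CPM in siControl to 3775 CPM in siACLY, a gain of 2262 CPM. The 118 falls lost 992.1 CPM, of which ACLY alone accounted for 462.6 CPM and the other 117 genes for 529.6 CPM. All genes called higher gained 32830 CPM in all, and all genes called lower lost 57570 CPM. Changes under 2-fold thus made up most of both sums. The balance of the 2 sums depends on the scaling. The TMM factors were 0.9776 to 0.9889 in siControl and 1.01 to 1.017 in siACLY. CPM scaled by them sum to less in a siACLY library than in a siControl library. The sums were not computed under another scaling, so no net direction is read from them.

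The genes that rose 2-fold had low levels in siControl. Compared per kilobase (kb) of annotated exon, so that genes of different length can be set side by side, their median siControl level was 0.175 CPM per kb, with quartiles of 0.0761 and 0.503. The median of all tested genes was 3.45 CPM per kb. Exon lengths were known for 427 of the 471 rises and for 94.98% of tested genes. In plain CPM the median of the rises was 0.436, against 13.6 for all tested genes. The 2-fold falls were low too, with a median of 0.636 CPM per kb in siControl (107 of 118 genes with a length). Genes called with smaller changes lay at or above the general level, at 4.48 CPM per kb for those called higher and 10.6 for those called lower. That contrast is partly by construction, since a small change is called only where its SE is small, and SEs were larger at low levels.

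A rise is low in siControl partly by construction, since the siControl level is the denominator of the fold change, so the same levels were read in other ways. In the 6 siSLC25A1 and siACO1 libraries, which are outside the contrast, the medians were 0.274 CPM per kb for the rises and 0.497 for the falls. On the mean of siControl and siACLY they were 0.352 and 0.446. In the group where each set was higher, the rises had a median of 0.505 CPM per kb in siACLY and the falls 0.636 in siControl. Where each set was lower, the rises had 0.175 in siControl and the falls 0.243 in siACLY. By each of these readings both sets lay far below the 3.45 to 3.56 CPM per kb of all tested genes, and the rises lay somewhat below the falls. Read in siACLY alone the order was reversed, at 0.505 for the rises and 0.243 for the falls, which is also partly by construction.

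**Figure D2:**
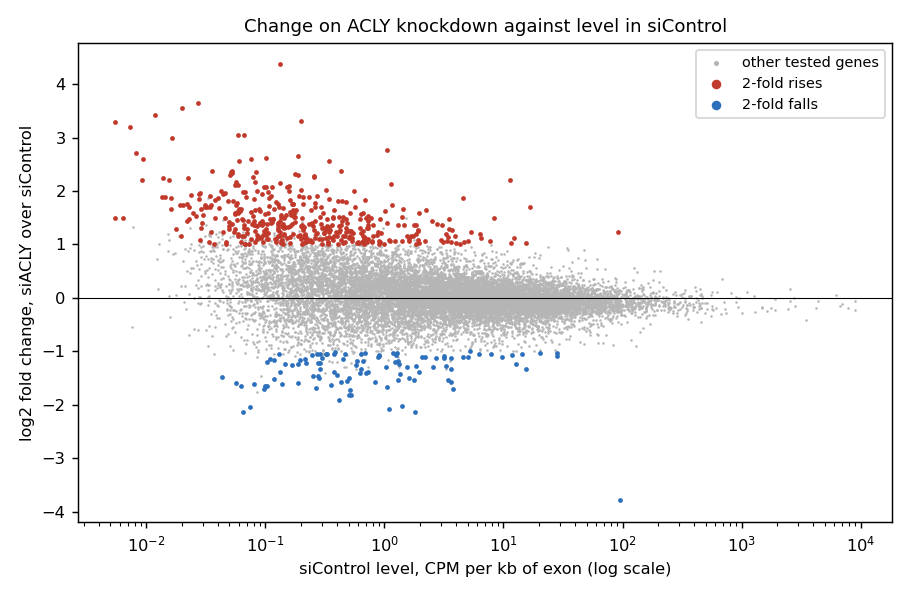
Log2 fold change in siACLY (vertical axis) against the siControl level in CPM per kb of exon (horizontal axis, log scale), 1 point for each tested gene with an exon length. The 2-fold rises (red) crowd at the low end, around their median of 0.175 CPM per kb, the 2-fold falls (blue) are fewer, and the lowest point is ACLY itself.

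Rises outnumbered falls most among genes at low levels. Below 1 CPM per kb in siControl, 369 of 4534 tested genes rose 2-fold (8.14%) and 63 fell (1.39%). At or above 1 CPM per kb, 58 of 10850 rose (0.535%) and 44 fell (0.406%). Binned by the level in siSLC25A1 and siACO1, there were 346 rises and 70 falls below 1 CPM per kb, and 81 and 37 at or above it. Binned by the mean of both groups, there were 326 and 75 below, 101 and 32 at or above 1, and 40 and 14 at or above 3 CPM per kb. The rises were therefore more numerous on both sides of 1 CPM per kb under all 3 ways of binning, by a margin that depended on the measure of level. Precision differed over the same range, with a median SE of the log2 fold change of 0.332 below and 0.0632 at or above 1 CPM per kb in siControl.

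**Figure D3:**
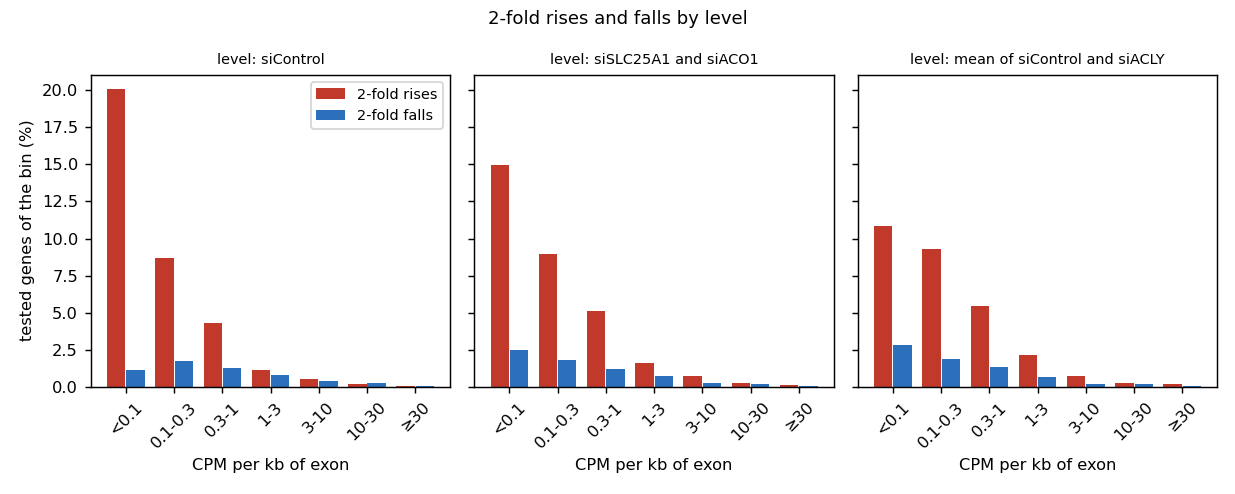
Percentage of tested genes that rose (red) or fell (blue) at least 2-fold (vertical axis) in bins of CPM per kb of exon (horizontal axis), with the level read in siControl (left), in the libraries outside the contrast (middle) or as the mean of both groups (right). The rising share of the lowest bin is 20.06% on the siControl level and 10.83% on the mean level, and falls to under 1% from 3 CPM per kb upwards in all 3 panels.

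Few of the large changes were in well-counted genes. Of the 471 rises, 104 (22.08%) had under 10 counts in every siControl library, and of the 118 falls, 26 (22.03%) had under 10 counts in every siACLY library. No rise had 0 counts throughout siControl, and no fall had 0 counts throughout siACLY. The higher group averaged 5 CPM or more in 97 rises and 22 falls, and both groups averaged 10 CPM or more in 21 rises and 10 falls. When 10 counts were required in every one of the 6 libraries, 247 rises and 60 falls were called. A stricter test, edgeR's glmTreat, asks whether a change exceeds 2-fold beyond its error, and it called 61 rises and 4 falls. The share of rises was 80.46% under the count filter. Without siACLY replicate 1, the deepest library, 452 rises and 126 falls were called.

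The large changes were less often protein-coding than tested genes in general, at 65.82% of rises and 64.41% of falls against 73.82%. Their exons were shorter, with a median of 3.61 kb for rises and 3.21 kb for falls against 4.28 kb. At least 20% of exon bases overlapped another gene in 5.95% of the rises, 20.3% of the falls and 12.6% of the remaining genes. Whether the counting used the strand is not given in the sources used here, and the part of such overlaps in these results was not tested.

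The 12 largest rises among genes at 5 CPM or more included FOSB, TSC22D3, RHOB and HBEGF. FOSB, an immediate early gene of the AP-1 family, had 1.03, 1.33 and 0.929 CPM in siControl and 12.6, 10.2 and 9.91 CPM in siACLY. This was a 9.88-fold rise with no overlap between the groups (log2 3.30 ± 0.21 SE, adjusted p = 1.71e-09). TSC22D3, the glucocorticoid-induced leucine zipper gene that FOXO factors also induce, went from 1.56, 1.83 and 1.501 CPM to 8.09, 9.85 and 11.5 CPM, a 5.92-fold rise. RHOB, a small GTPase of endosomes and actin with an immediate early pattern of induction, was the best measured of them, at 27.2, 27.2 and 26.8 CPM in siControl and 122, 125 and 127 CPM in siACLY (log2 2.20 ± 0.05, adjusted p = 5.89e-24). HBEGF, a ligand of the EGF receptor, went from 14.2, 12.7 and 14.8 CPM to 47.6, 53.6 and 50.6 CPM. In all 4 genes every siACLY library was above every siControl library, which the naming rule required, and the gap was wide.

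The remaining 8 were scattered over functions. RAB39B, a vesicle GTPase, rose 5.19-fold and CAMK1G, a calcium/calmodulin-dependent kinase, 4.41-fold. SLC4A8, a sodium bicarbonate transporter, rose 4.21-fold, NXPE3 4.03-fold, and ROBO4, a receptor of the roundabout family, 4.01-fold. NTNG2, a netrin-G protein, rose 3.68-fold and ALOXE3, a lipoxygenase family member, 3.47-fold. NGFR, the low-affinity neurotrophin receptor, was 6.85-fold higher, but its value is uncertain, a word used for genes with at least 20% of exon bases overlapped by another gene or of transcript sequence found elsewhere. The largest adjusted p among the 12 rises was 1.71e-09, that of FOSB. RHOB (2.11, adjusted p = 1.86e-23), RAB39B (3.09, 4.72e-13) and NXPE3 (2.04, 2.93e-10) were also higher on the log2 scale than in siSLC25A1, and they were higher than in siACO1 (2.78, 2.64 and 1.72, with adjusted p = 2.91e-26, 9.18e-13 and 1.2e-09). FOSB was higher than in siSLC25A1 by 1.14 and lower than in siACO1 (-1.09, adjusted p = 6.66e-06), and CAMK1G differed from siACO1 by -0.13 (adjusted p = 0.256).

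Beyond ACLY, the 12 largest falls included a protease, nuclear factors and targets of TGF-beta and BMP signalling. FURIN, the protease that cleaves many proproteins including TGF-beta, had 76.9, 68.3 and 75.98 CPM in siControl and 30.01, 27.6 and 29.99 CPM in siACLY. It fell by 1.33 on the log2 scale (SE 0.06, adjusted p = 5.16e-17) and was lower than in siSLC25A1 (-1.27) and siACO1 (-1.70, adjusted p = 3.92e-16 and 8.45e-20). SMAD6, an inhibitor of BMP signalling, went from 11.6, 9.44 and 12.6 CPM to 4.81, 4.89 and 5.17 CPM, and PMEPA1, a TGF-beta target that restrains TGF-beta signalling, from 29.4, 27.9 and 27.9 CPM to 13.1, 13.3 and 13.5 CPM. LAMA5, a laminin chain of basement membrane, went from 63.1, 63.2 and 69.05 CPM to 33.3, 29.2 and 27.95 CPM. BCL3, a nuclear partner of NF-kB, fell by 1.33 on the log2 scale and NFIB, a transcription factor, by 1.27. ARHGEF40 fell by 1.66, ZNF467 by 1.56, TMEM52 by 1.28, ZNF488 by 1.24 and EFNA1, an ephrin ligand, by 1.12. The groups did not overlap in any of the 12, which the naming rule required, and the largest adjusted p was 2.75e-05, that of LAMA5.

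PPARG, the nuclear receptor that drives fat cell genes and lipid storage, was also among the 12. It had 11.97, 12.02 and 10.7 CPM in siControl and 4.09, 5.51 and 4.86 CPM in siACLY, 41.6% of control (log2 -1.29 ± 0.12, adjusted p = 9.28e-10). It was lower than in siSLC25A1 (-1.25, adjusted p = 3.31e-09), whereas against siACO1 the difference was 0.01 (adjusted p = 0.951).

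The lists of lipid, chromatin, growth and stress genes were described by how many members were called in each direction and by the median log2 fold change of the tested members. For comparison, 18.4% of all tested genes were called higher and 18.3% lower, and the median of all was 0.008. In nearly all called list members the groups did not overlap, so non-overlap adds little to a call. No test was made of a list as a whole. The medians of acetyl-CoA supply, fatty acid oxidation, acetyl-lysine readers, the MYC network, NF-kB and ferroptosis lay on both sides of 0 over the settings tried, and that of glycerolipids reached 0.000, so no direction is given to these lists.

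Enzymes of cholesterol synthesis were higher, and none was called lower. Of 20 tested members 12 were called higher, and the median was 0.31 (0.27 to 0.35 over the settings tried). The groups did not overlap in any of the 12, as was usual for called genes. MSMO1, a sterol demethylase of the late pathway, had 16.2, 16.9 and 16.4 CPM in siControl and 30.4, 31.8 and 27.9 CPM in siACLY, a 1.82-fold rise (log2 0.86 ± 0.07, adjusted p = 5.78e-11). HMGCS1, which makes HMG-CoA from acetyl-CoA and acetoacetyl-CoA, went from 27.3, 25.9 and 26.02 CPM to 38.8, 41.1 and 40.2 CPM (log2 0.60 ± 0.06). SC5D and DHCR7, both at the end of the pathway, rose by 0.58 and 0.50 on the log2 scale, DHCR7 from 68.2 to 96.4 CPM. NSDHL, listed near 0, was not tested.

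Compared with the other knockdowns, 11 of the 20 members were higher in siACLY than in siSLC25A1 and 2 were lower, where 16.3% of all tested genes were higher and 17.5% lower. Against siACO1, 8 were higher and none lower, where the background was 21.4% higher and 20.7% lower. The list medians were 0.209 against siSLC25A1 and 0.093 against siACO1. Of the members named above, HMGCS1 and DHCR7 were higher than in siACO1 by 0.181 and 0.143 (adjusted p = 0.0127 and 0.0421). MSMO1 and SC5D differed from siACO1 by 0.023 and 0.085 (adjusted p = 0.818 and 0.506). These contrasts share the siACLY libraries with each other and with the comparison to siControl.

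Regulators of sterol balance moved in both directions. Of 15 tested genes of sterol sensing, uptake and efflux, 6 were called higher and 5 lower, with a median of 0.057. SREBF1, the gene of the SREBP that favours fatty acid genes, had 218, 243 and 239 CPM in siControl and 126, 133 and 127 CPM in siACLY, and it fell by 0.86 on the log2 scale (SE 0.05, adjusted p = 1.9e-14). SREBF2, the gene of the SREBP that favours cholesterol genes, had 122, 123 and 125 CPM and 86.4, 81.8 and 89.8 CPM, a fall of 0.52 (adjusted p = 5.62e-10). Both were also lower than in siSLC25A1 (-0.54 and -0.29, adjusted p = 5.17e-10 and 2.06e-05). INSIG1, itself an SREBP target that retains SREBPs, rose from 31.9, 39.04 and 36.1 CPM to 47.95, 48.2 and 49.0 CPM (log2 0.44, adjusted p = 6.15e-06).

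MYLIP and ABCA1 were lower. MYLIP, a ubiquitin ligase induced by liver X receptors, went from 10.3 to 5.56 CPM (log2 -0.89, adjusted p = 1.7e-07). ABCA1, the cholesterol efflux pump under the same receptors, was at 0.754, 1.14 and 1.501 CPM and 0.225, 0.388 and 0.501 CPM, a fall of 1.65 (SE 0.37, adjusted p = 0.000799) at a level where counts were few. ABCG1 and STARD4 were not tested.

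The classical sterol regulatory element, TCACNCCAC on either strand, with N any base, was looked for in RefSeq promoters (250 bases before to 50 after the start, GRCh38.p14). It occurred in 1.12% of the promoters of 10678 tested genes, in 0 of 15 cholesterol synthesis promoters and in 1 of 14 promoters of the sensing, uptake and efflux list. That 1 was SREBF2 itself, a gene that fell. Its 250 bases before the start (chr22:41832855-41833104, plus strand) are printed to show the match, in capitals, which begins 133 bases before the start. A match is a description of the sequence only, and its absence from such a window says nothing of the factor.
SREBF2: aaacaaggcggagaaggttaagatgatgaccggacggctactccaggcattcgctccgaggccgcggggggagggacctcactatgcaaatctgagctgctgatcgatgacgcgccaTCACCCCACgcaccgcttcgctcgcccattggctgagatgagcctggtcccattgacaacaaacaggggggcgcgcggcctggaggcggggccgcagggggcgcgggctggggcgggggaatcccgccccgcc

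Fatty acid genes were mixed, with FASN and SCD lower. Of 19 tested genes of fatty acid synthesis, desaturation and elongation, 4 were called higher and 6 lower, with a median of -0.055. FASN, fatty acid synthase, had 739, 738 and 821 CPM in siControl and 572, 516 and 575 CPM in siACLY, a fall of 0.47 on the log2 scale (SE 0.07, adjusted p = 5.37e-05). SCD, which makes monounsaturated fatty acids, went from 684, 803 and 760.2 CPM to 462, 493 and 487 CPM (log2 -0.64 ± 0.06, adjusted p = 1.17e-07). In both, every siACLY library was below every siControl library. MID1IP1, an activator of acetyl-CoA carboxylase, fell by 0.55. Acetyl-CoA carboxylase itself, ACACA, was listed at only 3.04, 3.36 and 2.82 CPM and 2.54, 1.75 and 2.43 CPM and was not called (log2 -0.44 ± 0.21, adjusted p = 0.107). Among the rises were FADS2, a desaturase of polyunsaturated fatty acids, by 0.49 (adjusted p = 4.14e-07), and ELOVL7, an elongase, by 1.10 from a low level of 0.907 CPM. FASN differed from siACO1 by 0.01 (adjusted p = 0.904) and from siSLC25A1 by -0.33 (adjusted p = 0.00127).

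Of 21 tested genes of acetyl-CoA supply other than ACLY, 4 were called higher and 6 lower, with a median of 0.004. ACSS2, the enzyme of the acetate route, had 21.8, 21.4 and 23.7 CPM in siControl and 32.2, 30.6 and 31.8 CPM in siACLY, a 1.42-fold rise with no overlap (log2 0.50 ± 0.06, adjusted p = 4.38e-07). It was also higher than in siACO1 (0.47, adjusted p = 9.65e-07) and siSLC25A1 (0.20, adjusted p = 0.0154). PDK3, a kinase that turns pyruvate dehydrogenase off, rose by 0.50 on the log2 scale. DLAT, a subunit of pyruvate dehydrogenase, fell by 0.25, from 126 to 106 CPM.

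Members of the lists for storage and breakdown of fat changed in both directions. Of 21 tested glycerolipid and lipid droplet genes 4 were called higher and 7 lower (median -0.128), and of 22 fatty acid oxidation genes likewise 4 and 7 (median -0.028). HILPDA, a lipid droplet protein that inhibits lipolysis, fell by 0.55 (adjusted p = 1.19e-05), and LPIN3, a phosphatidate phosphatase, rose by 0.53 (adjusted p = 1.87e-06). AGPAT4, an acyltransferase, rose by 0.44. PLIN4, a droplet coat protein, fell by 0.68 (adjusted p = 0.0096), a call that rested on siControl replicate 1, at 3.85 CPM against 1.96, 1.94 and 1.93 CPM in siACLY. Without that library its value was -0.48 (adjusted p = 0.106). CPT1A, the gate of mitochondrial fatty acid uptake, went from 84.5 to 66.0 CPM (log2 -0.36, adjusted p = 1.32e-05). HADH, a beta-oxidation dehydrogenase, fell by 0.39 and the coactivator PPARGC1B by 0.55. CPT1C was just past the threshold at 0.40 (adjusted p = 0.0464), and 7 of 14 alternative settings put it on the other side.

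Against siACO1, 3 of the 22 oxidation genes were higher in siACLY and 9 lower, and 5 of the 21 glycerolipid genes were higher and 9 lower. The background was 21.4% higher and 20.7% lower. Against siSLC25A1, 4 oxidation genes were higher and 5 lower, and 2 glycerolipid genes were higher and 5 lower, beside 16.3% and 17.5%.

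**Figure D4:**
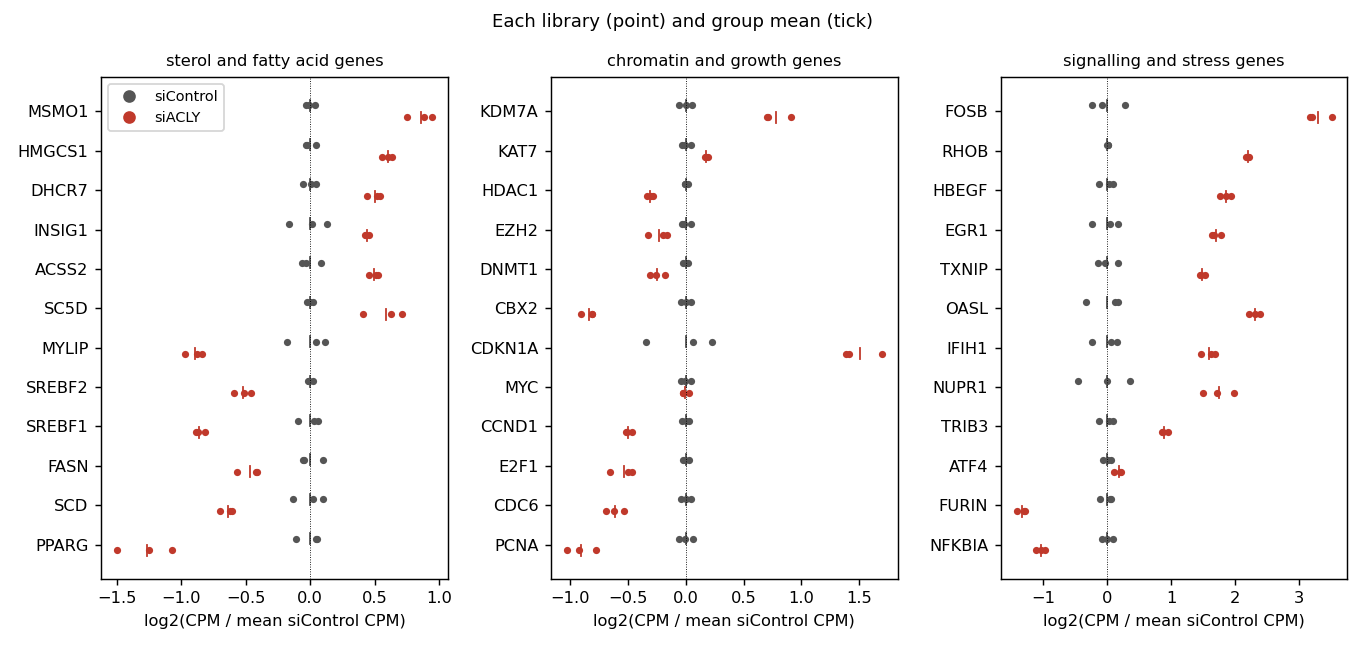
Each library's level as log2(CPM / mean siControl CPM) (horizontal axis), as 1 point for each of 3 siControl (grey) and 3 siACLY (red) libraries with the group mean as a tick, for 36 named genes (vertical axis). The groups overlap for MYC and lie close together for ATF4, cholesterol enzymes lie to the right and SREBF1, FASN, SCD and PCNA to the left.

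Changes in chromatin genes were mostly small, and in most chromatin lists called members were more often lower. Writers of histone acetylation, which use the acetyl-CoA that ACLY makes, were near control. Of 13 tested histone acetyltransferases 3 were called higher and 1 lower (median 0.041). KAT2A, the GCN5 acetyltransferase, had 153, 147 and 149 CPM in siControl and 128, 128 and 126 CPM in siACLY, a fall of 0.24 on the log2 scale (adjusted p = 2.39e-05). KAT7 rose by 0.18 (adjusted p = 0.00461) and the coactivator NCOA3 by 0.27 (adjusted p = 1.72e-05). KAT5 was higher by 0.30, an uncertain value. EP300 was at 109, 106 and 116 CPM and 119, 114 and 122 CPM (log2 0.10, adjusted p = 0.248), and its near relative CREBBP at 93.1 and 88.3 CPM (log2 -0.08, adjusted p = 0.277). The groups overlapped for both. EP300 passed the threshold when the 6 libraries were fitted alone (adjusted p = 0.0302) and without siACO1 replicate 3 (adjusted p = 0.0454).

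Among erasers of acetylation, calls went in both directions. Of 17 tested histone deacetylases 4 were called higher and 6 lower (median -0.108). HDAC1, a core class I deacetylase, went from 389.8, 381 and 381 CPM to 316, 312 and 304 CPM (log2 -0.31 ± 0.04, adjusted p = 1.4e-07). HDAC4 and HDAC7, class IIa members, fell by 0.40 and 0.37, and SIRT6, a nuclear sirtuin, by 0.34. HDAC10 was lower by 0.96, an uncertain value at 1.77 CPM. Of 24 readers of acetyl-lysine 1 was called higher and 5 lower (median -0.020), a share of falls near that of all tested genes. ATAD2B fell by 0.34, ATAD2 by 0.26, BRD1 by 0.27 and MLLT1, a YEATS reader, by 0.19.

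DNA methylation genes had no member called higher. Of 14 tested, 8 were called lower, and the median was -0.262 (-0.275 to -0.219 over the settings tried). The groups did not overlap in any of the 8, as was usual for called genes. DNMT1, the maintenance methyltransferase, had 391, 385 and 396 CPM in siControl and 344, 315 and 326 CPM in siACLY (log2 -0.25 ± 0.05, adjusted p = 7.69e-05). TET1 and TET3, which oxidise methylcytosine, fell by 0.78 and 0.48 (adjusted p = 3.4e-05 and 0.000123). ZBTB33, a methyl-CpG binding factor, fell by 0.45. UHRF1, which recruits DNMT1 to newly made DNA, was lower by 0.61 with an uncertain value. Enzymes that write and enzymes that erase this mark were thus both among the falls.

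Polycomb genes leaned lower as well, with 5 of 29 called higher and 14 lower (median -0.107). EZH2, the histone H3 lysine methyltransferase of the complex, went from 122, 127 and 120.4 CPM to 109.8, 107 and 97.8 CPM (log2 -0.23, adjusted p = 0.00021). CBX2, a reader subunit, fell by 0.84 (SE 0.06, adjusted p = 8.76e-13), from 48.7 to 27.2 CPM, and PCGF5 by 0.74. BMI1 was lower by 0.80 and PHC1 higher by 1.25, both uncertain. Of 38 histone methylation genes 7 were called higher and 11 lower (median -0.079). Over the settings tried 6 to 9 were called higher and 5 to 17 lower, so the balance of these calls is not settled. KDM7A, a demethylase of repressive marks, rose from 11.6, 11.2 and 10.7 CPM to 18.3, 18.2 and 21.05 CPM (log2 0.77, adjusted p = 6.64e-07), and SETDB2 rose by 0.49. PHF2 fell by 0.46 and SETD1B by 0.42.

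Of 23 histone variant and chaperone genes 3 were called higher and 10 lower (median -0.103). CHAF1A, the large subunit of the chaperone that loads histones at replication forks, went from 82.6, 85.7 and 86.4 CPM to 59.7, 54.97 and 53.7 CPM (log2 -0.59 ± 0.06, adjusted p = 1.22e-09). ANP32E, which removes the variant H2A.Z, fell by 0.30 and ASF1A by 0.27, while UBN1, of the H3.3 chaperone complex, rose by 0.27. Of the 14 DNA methylation genes 9 were lower in siACLY than in siSLC25A1 and 6 lower than in siACO1, and of the 29 Polycomb genes 11 and 12 were, beside backgrounds of 17.5% and 20.7%.

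Genes of DNA replication were more often lower than higher, by small amounts. DNA replication had 2 of 47 tested members called higher and 27 lower, with a median of -0.167. In all 27 the groups did not overlap, as was usual for called genes. PCNA, the sliding clamp of the replication fork, had 185, 201 and 190.5 CPM in siControl and 112, 101 and 93.9 CPM in siACLY, 53.3% of control (log2 -0.90 ± 0.07, adjusted p = 4.16e-08). CDC6, the helicase loader, went from 86.2, 91.4 and 88.7 CPM to 61.4, 57.6 and 54.9 CPM, and the helicase subunit MCM5 from 139, 148 and 144 CPM to 110.4, 95.7 and 93.2 CPM. ORC1, of the origin complex, fell by 0.56. MCM2, an uncertain value, was at 179, 186 and 188 CPM and 179, 156 and 158 CPM and was not called (log2 -0.17, adjusted p = 0.134), but it passed in 5 of 14 alternative settings. These were the replicate block (-0.17, adjusted p = 0.0354), DESeq2 (-0.17, adjusted p = 0.0469), no filter (-0.17, adjusted p = 0.00387), the 6 libraries fitted alone (-0.17, adjusted p = 0.0017) and leaving out siACLY replicate 1 (-0.24, adjusted p = 0.0322). In PCNA, CDC6 and MCM5 siACLY replicate 1 was the siACLY library nearest to control.

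Mitotic genes were lower as well. Of 32 tested G2/M genes 1 was called higher and 19 lower (median -0.155). KIF11, the spindle kinesin, fell by 0.36, CCNA2, cyclin A2, by 0.34, KIF20A by 0.34 and the checkpoint kinase BUB1B by 0.33. MKI67, the common proliferation marker, was at 334, 342 and 358 CPM in siControl and 338, 309 and 339 CPM in siACLY, with overlapping groups (log2 -0.07 ± 0.12, adjusted p = 0.709). Compared with siSLC25A1, 32 of the 47 replication genes and 26 of the 32 mitotic genes were lower in siACLY, beside a background of 17.5%. Compared with siACO1, 12 and 15 were lower, beside 20.7%.

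In the G1 and E2F list 3 of 23 tested genes were called higher and 11 lower (median -0.142). CCND1, cyclin D1, had 325, 313 and 321 CPM in siControl and 223, 231 and 225 CPM in siACLY (log2 -0.50 ± 0.04, adjusted p = 4.48e-11). E2F1, the activator of replication genes, went from 91.9, 93.8 and 90.9 CPM to 66.8, 58.3 and 65.2 CPM, and the repressor E2F8 fell by 0.60. CCNE2, cyclin E2, was lower by 0.74, an uncertain value. CDKN1A, the CDK inhibitor p21, was low in every library but rose, from 1.48, 0.999 and 1.32 CPM to 4.11, 3.38 and 3.32 CPM, 2.87-fold (adjusted p = 1.43e-07). It was higher than in siACO1 by 1.81 (adjusted p = 1.09e-08), and against siSLC25A1 the difference was -0.11 (adjusted p = 0.665). CDKN1B, the inhibitor p27, was at 95.5 and 97.7 CPM with overlapping groups (adjusted p = 0.634). CDKN2A, CDKN2B and E2F2 were not tested.

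Promoters of replication genes were searched for the E2F site, as TTTCCCGC or TTTGGCGC on either strand. It was present in 16 of 40 replication promoters (40.0%), against 3.62% of the promoters of all tested genes, and in 2 of 26 mitotic promoters. Among the 24 replication genes that were called and had a promoter, 11 held it. E2F sites are a textbook feature of replication genes, so this share describes the list and not its response. The PCNA promoter (chr20:5126623-5126872, minus strand, 250 bases before the start) is printed as the example with the largest fall, with its match in capitals, written as the reverse complement and beginning 59 bases before the start.
PCNA: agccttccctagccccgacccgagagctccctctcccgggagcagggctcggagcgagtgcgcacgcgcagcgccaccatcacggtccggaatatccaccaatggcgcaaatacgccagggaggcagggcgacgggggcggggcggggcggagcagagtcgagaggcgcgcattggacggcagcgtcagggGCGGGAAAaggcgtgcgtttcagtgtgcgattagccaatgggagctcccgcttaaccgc

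MYC was not among the changes. It had 316, 296 and 304 CPM in siControl and 312, 301 and 300.2 CPM in siACLY (log2 -0.00 ± 0.04, adjusted p = 0.936), and the groups overlapped. Of 12 tested genes of the MYC network 2 were called higher and 1 lower. MYCL rose by 0.84, from 1.59 CPM, and MXI1, an antagonist of MYC, fell by 0.44. MXD1, another antagonist, was just past the threshold at 0.26 (adjusted p = 0.0196), and it lost the call without siControl replicate 2 or 3 and without siACLY replicate 2 or 3 (0.22 to 0.25, adjusted p = 0.0507 to 0.087). Of 34 tested ribosome biogenesis genes 2 were called higher and 10 lower (median -0.051). GRWD1 fell by 0.39, WDR12 by 0.26 and PPAN, an uncertain value, was lower by 0.51, while RRP12 rose by 0.24. Against siACO1, 24 of the 34 were higher in siACLY and none lower, beside a background of 21.4% higher.

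Most tested members of the list that joins immediate early genes with feedback genes of the ERK pathway were called higher. Of 24 tested, 16 were called higher and 1 lower (median 0.243). The groups did not overlap in any of the 16, as was usual for called genes, and 6 of the 16 rose 2-fold. Besides FOSB these included EGR1, a zinc finger factor induced within minutes of growth factor stimulation, at 53.9, 58.9 and 44.2 CPM in siControl and 167, 180.3 and 164 CPM in siACLY (log2 1.70 ± 0.09, adjusted p = 6.95e-09). EGR3 went from 2.82, 3.16 and 3.32 CPM to 9.26, 9.78 and 8.597 CPM and FOS from 9.99, 10.8 and 6.15 CPM to 26.4, 24.01 and 20.4 CPM. The members named are immediate early genes, and values of single ERK feedback genes are not reported here. DUSP4, DUSP6, EGR2 and IER3 were not tested. Against siSLC25A1, 8 of the 24 were higher and 4 lower in siACLY, beside 16.3% and 17.5% of all tested genes. Against siACO1, 8 were higher and 9 lower, beside 21.4% and 20.7%. EGR1 was higher than in siSLC25A1 by 0.67 (adjusted p = 4.08e-05) and lower than in siACO1 (-0.33, adjusted p = 0.00604).

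Targets of FOXO factors and genes of quiescence were mixed, with 9 of 20 called higher and 4 lower (median 0.230). TXNIP, which limits glucose uptake and binds thioredoxin, rose from 14.4, 12.4 and 11.5 CPM to 35.02, 35.3 and 36.9 CPM, 2.79-fold (adjusted p = 3.8e-15). BTG1, an antiproliferative gene, rose by 0.78 on the log2 scale. ERBB3, a receptor of the EGF receptor family, fell by 0.76, from 4.69 to 2.76 CPM.

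**Figure D5:**
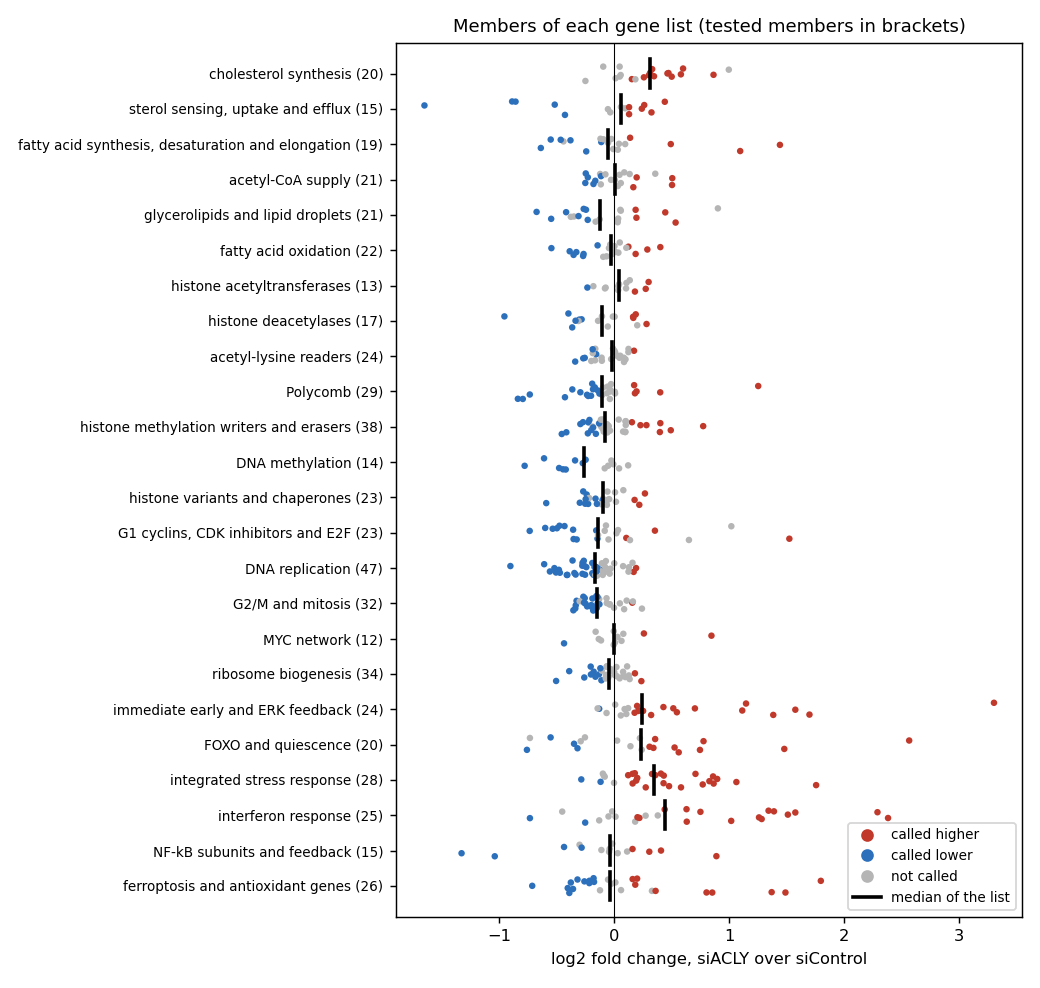
Log2 fold change in siACLY over siControl (horizontal axis) of every tested member of 24 gene lists (vertical axis), coloured red where called higher, blue where called lower and grey where not called, with the list median as a black bar. The medians run from -0.262 for DNA methylation to 0.438 for the interferon response, and the cholesterol, stress response and interferon lists sit to the right while the replication and mitosis lists sit just left of 0.

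Genes of the integrated stress response, which ATF4 drives when amino acids run short or proteins misfold, were higher. Of 28 tested, 22 were called higher and 2 lower (median 0.342, and 0.307 to 0.386 over the settings tried). ATF4 itself was at 357, 327 and 349 CPM in siControl and 372, 395 and 401 CPM in siACLY, higher by 0.18 with an uncertain value. NUPR1, a stress-induced chromatin protein, went from 0.726, 0.527 and 0.929 CPM to 2.07, 2.405 and 2.89 CPM. TRIB3, a pseudokinase target of ATF4, went from 128, 110.3 and 123 CPM to 218, 219.8 and 234 CPM (log2 0.90 ± 0.06, adjusted p = 1.27e-11). GDF15, a secreted stress hormone, rose 2.09-fold and ALDH1L2, a mitochondrial folate enzyme, 1.82-fold. Against siACO1, 27 of the 28 were higher in siACLY and 1 lower (median 0.718), beside 21.4% and 20.7% of all tested genes. Against siSLC25A1, 12 were higher and 5 lower (median 0.113), beside 16.3% and 17.5%.

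Interferon-stimulated genes were also higher, mostly at low levels. Of 25 tested, 15 were called higher and 2 lower (median 0.438), and 9 rose 2-fold. OASL, an antiviral protein of the oligoadenylate synthetase family, had 1.005, 0.971 and 0.715 CPM in siControl and 4.47, 4.73 and 4.16 CPM in siACLY (log2 2.29 ± 0.19, adjusted p = 1.24e-10). IFIH1, the cytosolic sensor MDA5 of long double-stranded RNA, went from 0.558, 0.527 and 0.429 CPM to 1.55, 1.396 and 1.62 CPM, OAS2 from 0.225 to 1.17 CPM and ISG20, an RNA exonuclease, from 1.29 to 3.72 CPM. The list was split against siACO1, with 11 of the 25 higher in siACLY and 7 lower (median 0.031), beside 21.4% and 20.7% of all tested genes. Against siSLC25A1, 9 were higher and 2 lower (median 0.130), beside 16.3% and 17.5%. Both OASL and IFIH1 were higher than in siACO1 (2.83 and 3.68, adjusted p = 6.06e-12 and 3.21e-09). Against siSLC25A1, OASL was lower (-0.44, adjusted p = 0.0262), and IFIH1 differed by 0.10 (adjusted p = 0.792). Of the 38 genes listed, 13 had too few counts to be tested.

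The interferon-stimulated response element, searched as GAAANNGAA on either strand, was present in 13 of 19 interferon promoters (68.4%), against 5.97% of all, and 9 of the 15 called genes with a promoter held it. The element TGATGNAA, bound by dimers of ATF4 and C/EBP factors, was present in 6 of 23 stress response promoters (26.1%), against 1.68% of all, and 5 of 19 called genes held it. As with the E2F site, the shares of both elements describe the lists and not their response. IFIH1 is shown for its 4 matches, 3 of which overlap into a single run that begins 164 bases before the start (chr2:162318685-162318934, minus strand). ATF3, a stress-induced factor and ATF4 target picked for this purpose after its values were seen, is shown for a match 191 bases before the start (chr1:212565157-212565406, plus strand). It had 6.48, 5.8 and 6.65 CPM in siControl and 11.1, 11.1 and 12.1 CPM in siACLY, a rise of 0.86 on the log2 scale (adjusted p = 1.56e-07). Capitals mark the matches in the 250 bases before each start.
IFIH1: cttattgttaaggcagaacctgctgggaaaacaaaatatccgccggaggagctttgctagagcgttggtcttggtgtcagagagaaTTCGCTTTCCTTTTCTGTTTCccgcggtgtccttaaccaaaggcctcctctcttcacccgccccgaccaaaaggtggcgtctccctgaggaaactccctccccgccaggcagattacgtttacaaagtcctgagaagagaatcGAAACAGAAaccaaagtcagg
ATF3: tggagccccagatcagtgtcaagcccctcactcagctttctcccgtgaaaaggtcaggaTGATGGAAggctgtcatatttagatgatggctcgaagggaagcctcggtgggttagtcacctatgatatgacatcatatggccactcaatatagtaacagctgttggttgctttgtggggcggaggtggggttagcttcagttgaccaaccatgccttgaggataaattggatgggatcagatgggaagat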

How the data were processed

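Poly(A) RNA of MiaPaCa-2 cells was captured on oligo-dT beads, fragmented and primed with random hexamers, per the labels' protocols. The authors deposited 1 table of whole-number read counts per gene, not normalized. CASAVA, FastQC, Trim Galore, STAR 2.7.0e and DESeq2 are named in the submitters' processing notes, as are the builds GRCh38 and GRCm39. The gene identifiers are human. The counting tool, annotation release and use of strand are not given in the sources used here. Symbols matched 62700 identifiers (89.42%), and coordinates, exon lengths and overlaps are from GENCODE 29 on GRCh38.

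Counts of all 12 libraries in 4 groups were fitted with edgeR 4.0.16 (R 4.3.3): filterByExpr, TMM factors, robust quasi-likelihood fit without a block (8 residual degrees of freedom), F tests and Benjamini-Hochberg adjustment over 16197 genes. Calls were made where the adjusted p was under 0.05. Levels are TMM-scaled CPM computed from the deposited counts, and every adjusted p is from this fit unless another setting is named. The code was tested on simulated counts.

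Named genes were ACLY, the 12 largest rises and 12 largest falls (called, at least 5 CPM in the higher group, groups not overlapping), up to 4 called members of each of 24 lists with the largest change and at least 1 CPM, and a fixed set of 32 genes. Some of these genes count in their lists but are not reported here by name. Of 139 named genes 11 were uncertain, among them ATF4, BMI1, CCNE2, HDAC10, KAT5, MCM2, NGFR, PHC1, PPAN and UHRF1. At least 20% of their exon bases overlapped another gene, or at least 20% of their 31-base stretches occurred in transcripts from elsewhere. The comparison, lists, motifs and rules were chosen with earlier results of these data known. Alternatives were DESeq2 1.42.0, other scalings, filters, thresholds, measures of level and libraries. Promoter sequences are from RefSeq (GRCh38.p14).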

Additional observations from a re-analysis of the deposited data

How the results depend on the processing

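The number of 2-fold changes followed the threshold and the filter. There were 1038 rises and 465 falls at 1.5-fold, 60 and 8 at 4-fold, 61 and 4 by glmTreat, and 247 and 60 with at least 10 counts in every siControl and siACLY library. Library totals alone put 61.01% of called genes higher. The median level of the rises moved to 0.274 CPM per kb in the siSLC25A1 and siACO1 libraries, 0.352 on the mean of both groups and 0.145 for protein-coding genes, and that of the falls to 0.497, 0.446 and 0.552. Leaving out 1 siControl or siACLY library at a time gave 5002 to 5132 called genes, 425 to 455 rises and 101 to 126 falls, and rises outnumbered falls each time. The same-numbered siControl and siACLY libraries did not deviate together (correlations -0.006, 0.067 and 0.019), so replicate numbers were not taken as pairs, and a fit with the replicate block called 6038 genes, 468 rises and 121 falls. With the block 5592 genes were called against siSLC25A1 and 6874 against siACO1. The alternative size bands under other scalings were added after seeing the data. Of 1931 values of named genes under alternative settings, 1900 kept their side of the threshold, 22 lost it, 9 gained it and no called gene changed sign. The uncalled MYC, CDKN1B and SLC25A1 lay on both sides of 0. The genes involved were MXD1, MCM2, SLC7A11, ACO1, ACACA, PLIN4, CPT1C and EP300. ACACA passed when the 6 libraries were fitted alone (-0.44, adjusted p = 0.0353). Restricting the search to 250 bases before the start moved the share of promoters with a match to 30% for replication, 57.9% for interferon and 17.4% for stress response genes. The median standard error of a log2 fold change was 0.332 for genes under 1 CPM per kb in siControl and 0.0632 for the others, and no comparison at other depths was made.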

Other observations

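Genes of ferroptosis, the iron-dependent death by lipid peroxidation named in the study's title, and of antioxidant defence changed often but in both directions. Of 26 tested, 9 were called higher and 11 lower, with a median of -0.041 (-0.074 to 0.003 over the settings tried). ACSL4, which loads membranes with polyunsaturated fatty acids and favours ferroptosis, had 55.2, 56.3 and 56.1 CPM in siControl and 98.8, 103 and 100.3 CPM in siACLY, a 1.805-fold rise (edgeR, adjusted p = 2.13e-14). It was higher than in siSLC25A1 by 0.62 and than in siACO1 by 0.61 on the log2 scale (adjusted p = 3.2e-11 and 1.58e-11). GPX4, the peroxidase that removes lipid peroxides, went from 287, 278 and 279 CPM to 216, 214 and 228 CPM, a fall of 0.36 on the log2 scale (adjusted p = 8.5e-06). HMOX1, heme oxygenase, rose 2.81-fold, from 20.8, 19.2 and 19.7 CPM to 54.2, 53.03 and 60.7 CPM, and GCH1, which makes the antioxidant cofactor tetrahydrobiopterin, 2.58-fold. TFRC, the transferrin receptor, fell by 0.22, from 762 to 656 CPM. AIFM2, which regenerates reduced coenzyme Q, rose by 0.18. SLC7A11, the cystine transporter, was at 52.03, 48.98 and 50.2 CPM and 53.3, 55.3 and 60.7 CPM (log2 0.16, adjusted p = 0.0362), and it lost the call in 5 of 14 settings, among them leaving out siControl replicate 2 or 3 or siACLY replicate 2 or 3 (0.10 to 0.17, adjusted p = 0.0637 to 0.25). Against siACO1, 14 of the 26 were higher in siACLY and 4 lower, beside 21.4% and 20.7% of all tested genes. Against siSLC25A1, 7 were higher and 9 lower, beside 16.3% and 17.5%.

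Subunits and feedback genes of NF-kB split evenly, with 4 of 15 tested members called higher and 4 lower. NFKBIA, the inhibitor that NF-kB itself induces, had 33.9, 32.3 and 36.3 CPM in siControl and 16.6, 15.8 and 17.4 CPM in siACLY (48.5% of control, adjusted p = 7.33e-11), and BIRC3, another target, fell by 0.44 on the log2 scale. CXCL8, the chemokine interleukin-8, moved the other way, from 114, 104 and 105 CPM to 196, 198 and 205 CPM (log2 0.89, adjusted p = 7.43e-16). It was higher than in siACO1 by 0.82 and lower than in siSLC25A1 (-0.24, adjusted p = 2.27e-05).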
